A study of Mus musculus with 3 samples.

Results

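The fibroblast growth factor (FGF) pathway of mouse embryos collected at 8.5 days post coitum (dpc) was examined through its ligands, its receptors and the best known genes that it switches on. The members were every probe set whose only gene symbol in the platform annotation was an FGF gene (Fgf followed by a number), Fgfr1 to Fgfr4, or one of the response genes Spry1, Spry2, Spry4, Etv4, Etv5 and Dusp6. This gave 67 of the 45101 probe sets on the array, for 32 genes, of which 22 were FGF genes, 4 were receptors and 6 were response genes. The mutant group was 2 arrays from pools of 8 and 6 litter mates of both sexes, called biological replicates in the labels. These whole embryos were Dnmt3l-/+, from Dnmt3l-/- mothers and wildtype fathers, on a C57Bl/6J background. The normal group was 1 array from a pool of 6 whole C57Bl/6J litter mates of both sexes at the same age. Dnmt3l is a cofactor of the enzymes that set maternal DNA methylation imprints in the growing oocyte, and the comparison asks how transcript levels differ in embryos whose mothers could not set them. Each array reads 1 pool, so the spread between embryos within a pool is not seen.

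FGFs are secreted signals that bind receptor tyrosine kinases at the cell surface together with heparan sulfate, a sugar chain on cell surface proteins. Receptor activation runs through the RAS-MAPK relay and switches on the ETS factors Etv4 and Etv5 as well as inhibitors that hold the signal in check, among them the Sprouty proteins and the phosphatase Dusp6. In the embryo at this stage FGF signals act in the tailbud, where they keep presomitic mesoderm immature, at the boundary of midbrain and hindbrain, in the pharyngeal region and in heart progenitors.

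Values are array signals on a linear scale, scaled so that every array had the same trimmed mean. Log2 ratios compare log2(signal + 31.9) between a mutant array and the normal array, which understates changes of dim genes. The levels of different probe sets were not compared, since each probe set has its own response. A probe set was tested where its mean log2 level passed a filter at the 40th percentile, which 37 of the 67 member probe sets and 22 of the 32 genes did. Each gene was read from its brightest probe set unless another is named. The single normal array has no spread of its own and was given that of the mutant pair, and the small number of arrays limits every value below. Log2 levels correlated across probe sets (features of one array, not replicates) at r = 0.968 between the mutant arrays, 0.953 between mutant 1 and normal, and 0.954 between mutant 2 and normal. Median signals were 130, 139.6 and 143.6 on mutant array 1, mutant array 2 and the normal array.

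None of the 37 tested member probe sets passed limma with Benjamini-Hochberg adjustment over all 27022 kept probe sets, in either direction. Over the array, 0.548% of kept probe sets passed as higher and 0.0296% as lower. The lowest adjusted p among members was 0.133. At an unadjusted p under 0.05 (limma) 8 member probe sets were lower in the mutants and 1 was higher, against 6.86% and 6.7% of all kept probe sets. Of the 8, 6 belonged to the secreted factors Fgf3, Fgf8, Fgf9, Fgf17 and Fgf18, and the others to Etv4 and Spry4. By size alone, 6 member probe sets were at least 2-fold lower on both mutant arrays, and none was at least 2-fold higher on both, where 1.9% and 2.57% of all kept probe sets were. In genes, 13 of the 22 tested were lower on both mutant arrays and 5 were higher on both, against 39.1% and 36.5% of the 12913 tested genes. The median log2 ratio was -0.34 over these 22 genes and -0.10 over all 32, beside -0.02 over all tested genes and -0.01 over all genes without the filter.

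**Figure D1:**
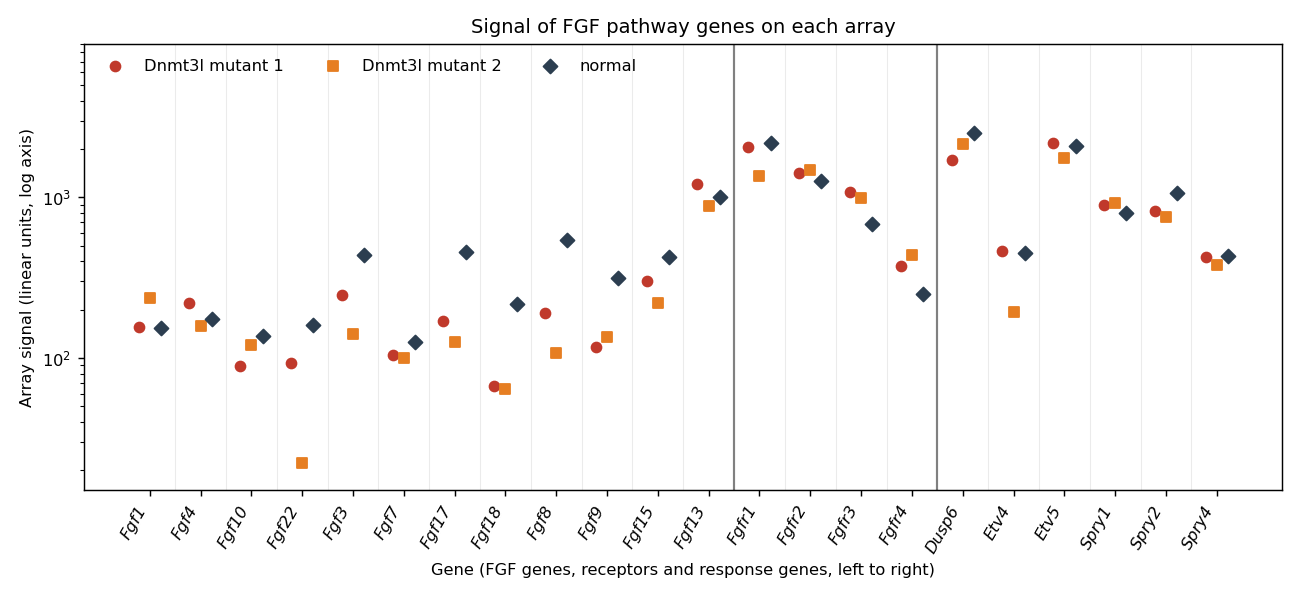
Signal (linear units on a log axis) of the 22 tested FGF pathway genes on mutant array 1 (circles), mutant array 2 (squares) and the normal array (diamonds), each gene by its brightest probe set, with lines between FGF genes, receptors and response genes. Fgf8, Fgf17, Fgf18, Fgf9 and Fgf3 had both mutant signals well below the normal signal, while those of Fgfr3 and Fgfr4 lay above it.

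The Fgf8 subfamily, which also holds Fgf17 and Fgf18, had the lowest log2 ratios among the tested genes. These closely related ligands are made in the tailbud and at the boundary of midbrain and hindbrain, and Fgf8 is needed for gastrulation and for heart and brain patterning. Fgf8 read 189 and 107 on the mutant arrays, against 542 on the normal array. The mutant signals averaged 148 ± 57.8 (SD, n = 2), and the log2 ratio was -1.71 (SE 0.38, adjusted p = 0.172 by limma). Both mutant arrays lay far below the normal array, and mutant 2 was the lower of the pair.

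Fgf17 was measured by 2 probe sets that gave the same picture. The brighter read 170 and 125 on the mutant arrays, against 453 on the normal array, and had a log2 ratio of -1.45 (SE 0.32, adjusted p = 0.172 by limma). The other read 86.4 and 84.6 on the mutant arrays, against 338 on the normal array. Its log2 ratio of -1.66 (SE 0.32) had the lowest adjusted p of any member, 0.133 by limma. Fgf18 read 67.1 and 64.3 on the mutant arrays, against 216 on the normal array, with a log2 ratio of -1.35 (SE 0.35, adjusted p = 0.211 by limma). The mutant arrays differed little from each other for Fgf18, and all 3 genes of the subfamily were more than 2-fold lower on each of them. The Fgf18 probe set and the dimmer one of Fgf17 lay under the filter (a signal of 90.4) on both mutant arrays and passed it only through the normal array, where they were high.

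Fgf9, a ligand that acts from epithelium on neighbouring mesenchyme, was the fourth gene at least 2-fold lower on both mutant arrays. Its brighter probe set read 116 and 135 on the mutant arrays, against 317 on the normal array, with a log2 ratio of -1.15 (SE 0.32, adjusted p = 0.233 by limma). The other Fgf9 probe set moved less, with 142 and 152 on the mutant arrays, against 194 on the normal array (log2 ratio -0.33). The share of all tested genes that were at least 2-fold lower on both mutant arrays was 0.635%, and 3.24% were at least 2-fold higher. Of the 22 members tested, 4 genes were lower by that measure and none was higher. The gene shares count only the brightest probe set of each gene, and over all kept probe sets they were 1.9% and 2.57%. The filter corresponded to a signal of 90.4 on every array. Of the 6 member probe sets at least 2-fold lower, 3 had a mean mutant level (of log2 signal) under it and were tested only through their normal signal, namely those of Fgf18 and the second probe sets of Fgf17 and Etv4.

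Fgf3, which is needed for the inner ear and the tail, read 248 and 140 on the mutant arrays, against 434 on the normal array. The log2 ratio was -1.09 (SE 0.39, adjusted p = 0.324 by limma), with -0.74 on mutant 1 and -1.44 on mutant 2, so both were lower by unequal amounts. The other 2 probe sets of Fgf3 had log2 ratios of -0.69 and -0.74 and were also lower on both mutant arrays. Fgf15, the mouse counterpart of human FGF19, is made in the embryonic brain. It read 301 and 221 on the mutant arrays, against 424 on the normal array (log2 ratio -0.65, adjusted p = 0.446 by limma). In the gene table, Fgf3, Fgf4 and Fgf15 are direct neighbours on chromosome 7, with 16 protein-coding genes between Phlda2 of the Kcnq1 imprinted domain and Fgf3. Fgf4, in the middle of the 3, read 220 and 157 on the mutant arrays, against 174 on the normal array, so the normal signal lay between the mutant signals.

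Promoter sequence was looked up because the mutation acts on methylation of CG dinucleotides. Fgf8 and Fgf17, which had the lowest log2 ratios among the tested genes, had no window. Sequences are shown for the lower ligands Fgf18, Fgf9 and Fgf3, and for Fgfr4 as a member with higher signal on both mutant arrays. Each is the 250 bases before a RefSeq start in assembly GRCm38.p6, 5′ to 3′ on the gene's strand, with every CG dinucleotide in capitals.
Fgf18: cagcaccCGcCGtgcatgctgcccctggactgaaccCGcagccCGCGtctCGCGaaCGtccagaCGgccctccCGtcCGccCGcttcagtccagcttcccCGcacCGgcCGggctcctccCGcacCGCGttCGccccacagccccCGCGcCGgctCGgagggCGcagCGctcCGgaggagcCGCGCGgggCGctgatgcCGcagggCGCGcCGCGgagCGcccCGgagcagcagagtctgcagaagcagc
Fgf9: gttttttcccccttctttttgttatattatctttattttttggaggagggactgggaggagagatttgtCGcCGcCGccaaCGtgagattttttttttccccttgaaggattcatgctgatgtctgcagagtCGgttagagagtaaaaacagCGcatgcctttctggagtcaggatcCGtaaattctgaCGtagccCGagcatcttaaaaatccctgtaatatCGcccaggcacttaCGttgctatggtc
Fgf3: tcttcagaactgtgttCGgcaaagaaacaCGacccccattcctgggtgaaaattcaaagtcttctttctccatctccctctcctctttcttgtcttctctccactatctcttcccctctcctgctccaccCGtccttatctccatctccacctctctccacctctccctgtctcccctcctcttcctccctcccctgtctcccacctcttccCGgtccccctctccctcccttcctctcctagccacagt
Fgfr4: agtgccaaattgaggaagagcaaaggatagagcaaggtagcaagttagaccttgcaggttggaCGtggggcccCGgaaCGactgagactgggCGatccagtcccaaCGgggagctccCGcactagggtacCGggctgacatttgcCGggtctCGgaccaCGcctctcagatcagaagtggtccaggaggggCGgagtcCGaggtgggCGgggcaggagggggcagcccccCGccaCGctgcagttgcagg
The windows are chr11:33147401-33147650 on the minus strand for Fgf18, chr14:58072436-58072685 on the plus strand for Fgf9, chr7:144838362-144838611 on the plus strand for Fgf3 and chr13:55152568-55152817 on the plus strand for Fgfr4.

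The 3 lower ligands shown did not share a density of CG in these windows, and Fgf8 and Fgf17 could not be examined. Fgf18 had 37 CG dinucleotides, a count reached by 2.2% of the 32851 windows in the table, Fgf9 had 11 (35.6%) and Fgf3 had 4 (62.2%). Fgfr4 had 15 (27.3%). Windows were found for 23 of the 32 member genes, 31 windows in all, with a median of 18 CG against 6 over all windows. The motif CGGAAG, a core bound by ETS factors, was searched on both strands and lay in 4 of the 31 member windows, and in 13.6% of all windows. The 4 windows with it belonged to Dusp6, Fgf23 and Fgf12, and none to the 4 sequences shown. A match is a description of letters, and methylation itself was not measured here.

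The remaining secreted ligands differed less between the groups. Fgf10, a signal from mesenchyme that is made in heart progenitors, read 89.1 and 121 on the mutant arrays, against 137 on the normal array. Fgf7, which signals to epithelia, read 105 and 99.4 on the mutant arrays, against 126 on the normal array. Both were lower on each mutant array, by log2 ratios of -0.32 and -0.23 on average, which is less than their standard errors (0.36 and 0.34). Fgf22 read 93.1 and 22.2 on the mutant arrays, against 159 on the normal array, and its log2 ratio of -1.22 (SE 0.58) rested mostly on mutant 2. A dim second probe set of Fgf22 pointed the other way, with 45.2 and 110 on the mutant arrays, against 19.9 on the normal array. Averaged over both probe sets, the log2 ratio of Fgf22 was only -0.10. Fgf1, which binds all the receptors, was the only tested ligand higher on both mutant arrays, with 156 and 235, against 153 on the normal array, so mutant 1 hardly differed from normal. In all, 9 of the 11 secreted FGF genes tested were lower on both mutant arrays, 1 was higher on both and Fgf4 was split. Over all tested genes 39.1% were lower and 36.5% higher on both. Among the 9, Fgf18 and Fgf22 had a mean mutant level (of log2 signal) under the filter and were tested only through their normal signal. With the dim genes counted as well, 12 of 18 secreted FGF genes were lower on both mutant arrays and 4 were higher. The shares above cover tested genes only, and no share was computed with dim genes included. Nothing is therefore read from this count.

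Among 10 genes no probe set passed the filter. Of these, 7 encode secreted factors (Fgf2, Fgf5, Fgf6, Fgf16, Fgf20, Fgf21 and Fgf23) and the others, Fgf11, Fgf12 and Fgf14, belong to the intracellular FGF group, which binds sodium channels instead of receptors. The 30 member probe sets not tested had signals between 3.16 and 119. Fgf5, a factor of the early epiblast, read 10.8 and 9.78 on the mutant arrays, against 52.6 on the normal array, and both mutant signals lay below the 20th percentile of their arrays (28.3 and 33.4). Fgf16 and Fgf23 were higher on both mutant arrays, at 54.4 and 60.04 for Fgf16, against 34.0 on the normal array, and at 74.8 and 82.2 for Fgf23, against 47.7 on the normal array. At these signals no direction was drawn. Over all 18 secreted FGF genes, tested or not, the median log2 ratio was -0.33, and over the 11 tested it was -1.09. Fgf13, an intracellular member on the X chromosome, read 1205 and 885 on the mutant arrays, against 1011 on the normal array, and the normal array lay between the mutants.

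**Figure D2:**
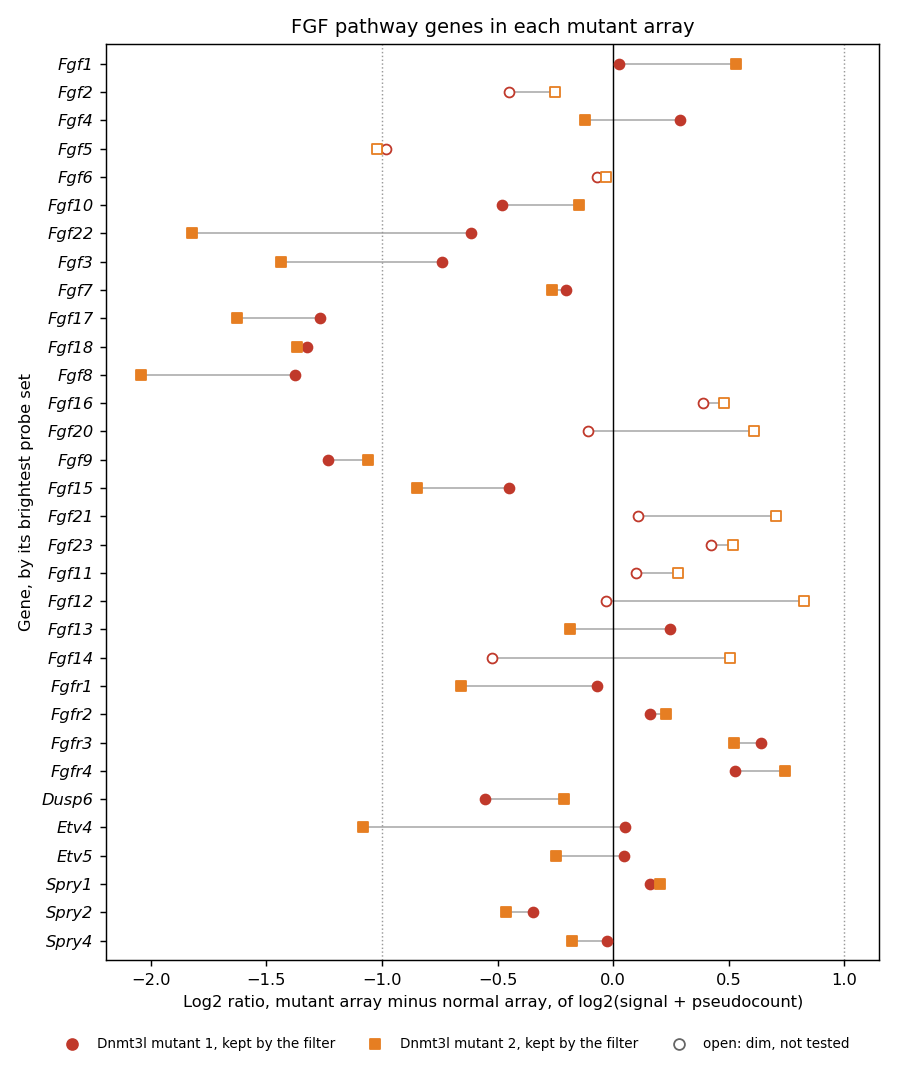
Log2 ratio of mutant array 1 (circles) and mutant array 2 (squares) against the normal array for all 32 genes, each by its brightest probe set, with open symbols for genes too dim to test and dotted lines at 2-fold. Fgf8, Fgf17, Fgf18 and Fgf9 are the tested genes with both symbols beyond 2-fold, and Fgfr2, Fgfr3 and Fgfr4 have both symbols right of 0.

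The receptors differed little, and 3 of the 4 were higher on both mutant arrays, where 36.5% of all tested genes were. Fgfr4 read 375 and 440 on the mutant arrays, against 250.3 on the normal array, with a log2 ratio of 0.64 (SE 0.28, adjusted p = 0.409 by limma). Its other 2 tested probe sets had log2 ratios of 0.20 and 0.58, the second of which rested on mutant 1 (278, with 113 on mutant 2, against 110 on the normal array). Fgfr3 read 1079 and 993 on the mutant arrays, against 680 on the normal array, with a log2 ratio of 0.58 (SE 0.23, adjusted p = 0.367 by limma). It was the member with an unadjusted p under 0.05 on the higher side. A second Fgfr3 probe set disagreed in sign, at 126 and 23.5 on the mutant arrays, against 154 on the normal array, so the mean of both gave -0.21.

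Fgfr2 read 1413 and 1483 on the mutant arrays, against 1262 on the normal array (log2 ratio 0.19, SE 0.21). Its other tested probe set gave 0.43, and both were higher on each mutant array. Fgfr1, the main receptor of mesoderm and neural tissue at this stage, read 2066 and 1362 on the mutant arrays, against 2166 on the normal array (log2 ratio -0.36, SE 0.30). Mutant 1 was close to normal, and the 3 Fgfr1 probe sets differed in sign, with 0.35 and -0.45 for the other pair. The median over the 4 receptors was 0.39.

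The response genes had no common direction. Dusp6, which removes the activating phosphates from ERK, read 1695 and 2156 on the mutant arrays, against 2504 on the normal array (log2 ratio -0.38, SE 0.23, adjusted p = 0.540 by limma). Spry2, an inhibitor of receptor tyrosine kinase signalling, read 826 and 759 on the mutant arrays, against 1058 on the normal array (-0.40, SE 0.23, adjusted p = 0.522 by limma). Spry1, of the same family, read 900 and 927 on the mutant arrays, against 801 on the normal array (0.18, SE 0.23). Dusp6 and Spry2 were lower on both mutant arrays and Spry1 was higher on both, each by less than 2 standard errors.

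Spry4 was read by 2 tested probe sets of unequal change. The brighter read 425 and 379 on the mutant arrays, against 433 on the normal array, and the other read 278 and 179 on the mutant arrays, against 436 on the normal array. Their log2 ratios were -0.10 and -0.87 (SE 0.35 for the second, adjusted p = 0.369 by limma). Both had the same sign, but the gap in size means that the change of Spry4 depended on the probe set. Etv4, an ETS factor that FGF signals induce, read 465 and 194 on the mutant arrays, against 447 on the normal array for its brighter probe set. The second Etv4 probe set read 80.2 and 93.7 on the mutant arrays, against 220 on the normal array (log2 ratio -1.08, SE 0.34, adjusted p = 0.276 by limma). For Etv4, mutant 2 was lower by both probe sets and mutant 1 by 1 of them.

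Etv5, the partner of Etv4, was split between the mutant arrays. Its brightest probe set read 2162 and 1759 on the mutant arrays, against 2093 on the normal array. The other 2 read 776 and 360 on the mutant arrays, against 478 on the normal array, and 522 and 236 on the mutant arrays, against 335 on the normal array. All 3 probe sets had mutant 1 above normal and mutant 2 below it, so the mutant arrays differed from each other more than their mean differed from normal. Over the 6 response genes the median log2 ratio was -0.24, with 3 lower on both mutant arrays, 1 higher on both and 2 split. Among all tested genes 39.1% were lower and 36.5% higher on both.

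**Figure D3:**
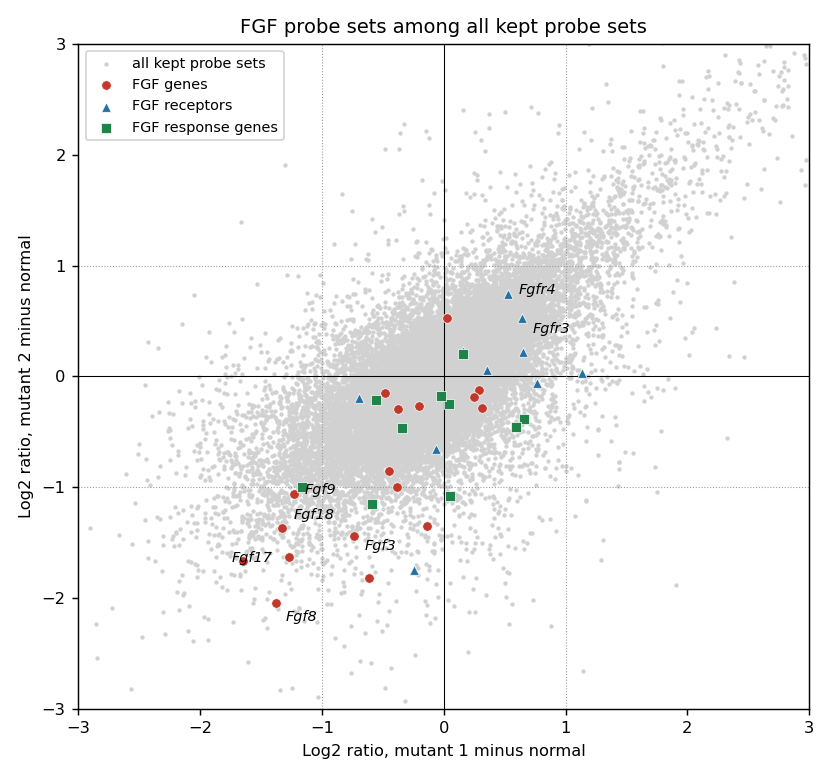
Log2 ratio of mutant 1 (horizontal) and mutant 2 (vertical) against normal for all 27022 kept probe sets (grey) and the 37 tested FGF member probe sets (circles for FGF genes, triangles for receptors, squares for response genes), with dotted lines at 2-fold. The 6 members at least 2-fold lower on both arrays are at the lower left, and 82 grey points lie beyond the axis limits.

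Proteins that help FGFs reach or bind their receptors included the one pathway gene that passed over the whole array. Klb, the co-receptor that endocrine FGFs such as Fgf15 and Fgf21 need, rose to 863 and 1111 on the mutant arrays, against 94.9 on the normal array. Its log2 ratio was 3.00 (SE 0.29, adjusted p = 0.0291 by limma). That call was lost without the filter on dim probe sets (adjusted p = 0.139) and without a variance trend (0.114). A second Klb probe set was dim on every array, at 9.35 and 8.21 in the mutants, against 10.3 in the normal pool. Sdc4, a cell surface proteoglycan with heparan sulfate chains, read 798 and 986 on the mutant arrays, against 233 on the normal array (log2 ratio 1.79, SE 0.27, adjusted p = 0.0779 by limma). A second Sdc4 probe set read 381 and 1008 on the mutant arrays, against 286 on the normal array (log2 ratio 1.04, adjusted p = 0.491 by limma), with only 0.38 on mutant 1. The probe sets of Sdc4 thus shared a sign but differed in size. Gpc3, an anchored proteoglycan, read 2986 and 5996 on the mutant arrays, against 1699 on the normal array (1.30, adjusted p = 0.276), and Sdc2 and Cdh2 had log2 ratios of -0.98 and -0.78. Averaged over its probe sets, each of Sdc2 and Cdh2 came to -0.41. Of the 15 genes of this list that were tested, 1 passed, 3 were higher on both mutant arrays and 8 were lower on both, with a median of -0.26. The shares over all tested genes were 36.5% higher and 39.1% lower on both.

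The enzymes that build and edit heparan sulfate had log2 ratios in a narrow range. None of 14 passed. On both mutant arrays 6 were higher and 4 were lower, beside 36.5% and 39.1% of all tested genes. The ratios ran between -0.31 and 0.39 with a median of 0.06. The most changed by the less changed mutant array were Ugdh, which makes the sugar precursor (0.21), Hs3st1 (0.39), Hs6st1 (0.31) and Hs3st3b1 (-0.31), which add sulfate.

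In the RAS-MAPK and PI3K relay inside the cell, none of 22 genes passed, and the median was -0.01. On both mutant arrays 8 were higher and 8 were lower, where 36.5% and 39.1% of all tested genes were. Gab1, a docking protein that links receptors to PI3K, read 2421 and 2354 on the mutant arrays, against 959 on the normal array (log2 ratio 1.29, SE 0.20, adjusted p = 0.0851 by limma). Its other probe sets gave 1.06 and 0.97. The kinase genes Braf and Map2k1 had log2 ratios of 0.51 and 0.45, and the adaptor gene Shc1 had -0.40. For Braf the sign depended on the probe set, since averaging its probe sets gave -0.19.

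Of 26 further response and feedback genes none passed, and the median was -0.27. On both mutant arrays 8 were higher and 14 were lower, against 36.5% and 39.1% of all tested genes. Dusp9, like Dusp6 a phosphatase of MAP kinases, went the other way from Dusp6. It read 2899 and 2626 on the mutant arrays, against 1068 on the normal array (log2 ratio 1.34, SE 0.20, adjusted p = 0.0779 by limma), and its other probe sets gave 1.39 and 0.88. Tbx6, a T-box factor of presomitic mesoderm, had -1.11, Gbx2, a homeobox factor of the anterior hindbrain, had -1.13, and the early response gene Ier3 had 1.06. Tbx6 and Gbx2 are counted again below, among the tailbud genes and those of the boundary of midbrain and hindbrain.

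Tissue markers moved in the same arrays. All 7 yolk sac endoderm genes rose, with a median log2 ratio of 3.23, and their summed signal was 78702 and 85150 on the mutant arrays, against 15328 on the normal array. All 6 primitive erythroid genes were higher on both mutant arrays (median 1.90), with summed signals of 49090 and 47878 on the mutant arrays, against 23803 on the normal array, and 2 of them passed. The calls of these yolk sac and erythroid genes, like that of the decidual gene Prl8a2, did not hold when every probe set was tested or when no variance trend was fitted, as 0 probe sets of the array were then called. Of 8 presomitic mesoderm and tailbud genes, 6 were lower on both mutant arrays (median -0.65, summed signals of 3743 and 3755, against 5931 in normal), and the segmentation clock gene Hes7 had -2.03. Of 5 genes of the boundary of midbrain and hindbrain, 4 were lower on both (median -0.61, summed signals of 1007 and 840, against 1375 in normal). These tissue counts stand beside 36.5% of all tested genes higher and 39.1% lower on both mutant arrays.

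All 3 second heart field and pharyngeal genes (median -0.52), all 5 cardiac genes (-0.94) and all 6 neural genes (-0.99) were also lower on both mutant arrays, and none passed. Of the trophoblast markers, the 2 tested were higher on both (median 2.01), and 1 of them passed (adjusted p = 0.0498 by limma). That call was also lost when every probe set was tested or when no variance trend was fitted. The remaining trophoblast marker measured, Tpbpa, was too dim to test and lay the other way. It read 32.8 and 23.3 on the mutant arrays, against 180.2 on the normal array (log2 ratio -1.83). The 3 decidual markers tested had no common direction, with 1 higher and 2 lower on both mutant arrays. Prl8a2 fell, at 91.2 and 111 on the mutant arrays, against 1376 on the normal array. Lum read 749 and 2530 on the mutant arrays, against 444 on the normal array (log2 ratio 1.57, not past the threshold), and Pgr had a log2 ratio of -0.62. No marker was listed at 0. The median log2 ratio of the 12 tested FGF genes was -0.87, within the range of the medians of the embryonic lists. Over all 22 FGF genes, tested or not, it was -0.14, outside that range, so the match depended on the filter. Fgf18 and Fgf22 were among the 12 only through their normal signal. As single genes, Fgf8 had -1.71, Fgf17 had -1.45 and Fgf18 had -1.35. The lowest single genes of these lists were Hes7 (-2.03) and then Tbx6 (-1.11) among the tailbud genes, Tbx5 (-1.45) among the cardiac genes and Otx2 (-1.34) among the neural genes. Hes7 read 225 and 54.8 on the mutant arrays, against 576 on the normal array, so its size rested on mutant 2 more than on mutant 1. The part that tissue makeup played in the FGF values was not tested, and in pools of whole embryos fewer cells of a type and less RNA per cell cannot be told apart.

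**Figure D4:**
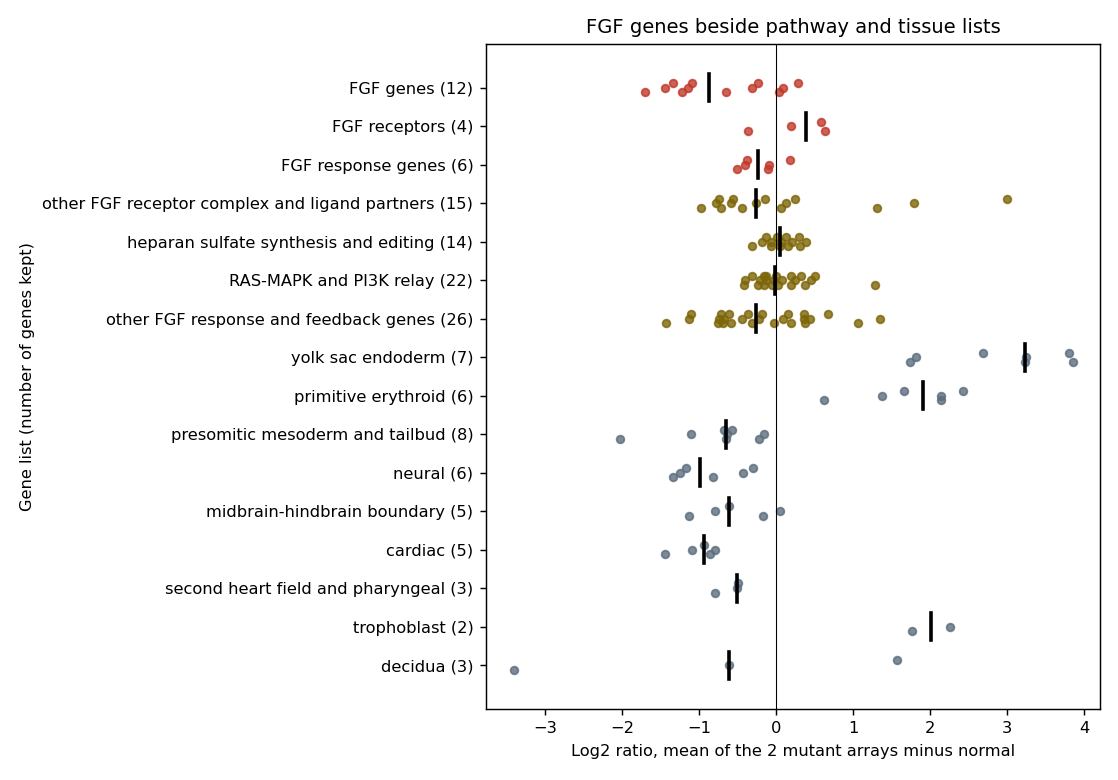
Log2 ratio (mean of the 2 mutant arrays minus normal) of every tested gene in the FGF groups (red), 4 further pathway lists (brown) and 9 tissue lists (grey), with each list's median as a black bar and its number of genes in brackets. The FGF genes and the embryonic lists have their medians left of 0, the receptors lie mostly right of 0 and the yolk sac endoderm genes lie farthest right.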

How the data were processed

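Single-channel Affymetrix arrays measured RNA from 3 pools of whole embryos, 2 Dnmt3l mutant and 1 normal. The deposited values are linear intensity values, and GCOS and MAS5 made them, per the submitters' processing notes, which give no version. All arrays had a mean of 500 once the top and bottom 2% of values were dropped, so they had been scaled to one another. Under such scaling a gain in some transcripts can lower the values of others, and whether it did so here was not tested. The number of arrays limits the precision. No detection calls and no genome build came with the values.

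After leaving out 64 control probe sets, 45037 remained, of which 34945 had 1 gene symbol in the platform annotation, 932 had several and 9160 were not listed. Genes with no probe set of their own were not analysed here. The pseudocount of 31.9 was the middle value, over arrays, of the 20th percentile of signal. A probe set was tested if its log2(signal + 31.9), averaged over the groups, reached the 40th percentile (27022 probe sets). The test was limma (version 3.58.1, R 4.3.3), lmFit and eBayes with a variance trend, two-sided, with Benjamini-Hochberg adjustment and 0.05 as threshold. There was 1 residual degree of freedom, and eBayes added 4.52. The script was tested on simulated data. The members and lists were chosen with earlier results of these data known. All members are named. From each pathway list the text names genes that passed and up to 4 more, by the log2 ratio in the less changed mutant array among genes of 1 sign in both. Hes7, Prl8a2 and the neighbours of Fgf3 were named after their values were seen. Alternatives varied the pseudocount, filter, scaling, variance trend, probe set choice and arrays.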

Additional observations from a re-analysis of the deposited data

How the results depend on the processing

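No FGF member probe set passed under any alternative fit, and the lowest adjusted p (limma) over them was 0.111. Without the filter, 11 of the 67 member probe sets were lower and 1 was higher at an unadjusted p under 0.05 (limma). Of all 45037 probe sets, 2451 were lower and 2423 higher by that rule. Without a variance trend, 7 of the 37 members were lower and 0 higher, beside 1814 and 1641 of all 27022. Over the array, 148 probe sets were called higher and 8 lower. With all probe sets tested, or with no variance trend, no call was left (0 and 0). Median centring gave 263 and 24. Under the stricter filter, which tests fewer probe sets, 2 members and not 6 were at least 2-fold lower on both mutant arrays. With each mutant array left out, 2-fold was asked of the remaining mutant array alone, which is a looser rule. By it 6 to 9 members were lower and 0 to 1 higher. These counts cannot be set against those on both arrays, and no share over all probe sets was computed. The median log2 ratio of the tested genes (-0.34) was -0.10 without the filter, where the dim genes join to make 32 and no log2 ratio changes. It was -0.16 with the mean of each gene's probe sets, and -0.23 to -0.14 with 1 mutant array left out. The cause of these latter shifts was not tested.

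Of 234 log2 ratios of the 22 tested genes under alternatives, 225 kept their direction, but many of these could not turn. A change of filter or variance trend leaves the log2 ratio as it was. A change of pseudocount, or leaving out 1 mutant array, cannot turn a gene with both mutant arrays on one side of normal. For genes with 1 probe set the mean of probe sets is the same value. The count is therefore no measure of stability. The log2 ratios of Fgf8 ran from -2.04 to -1.38, of Fgf17 from -1.63 to -1.27 and of Fgf18 from -1.51 to -1.11. Those of Fgf9 ran from -1.24 to -0.74 and of Fgf3 from -1.44 to -0.74. The direction turned for Fgf13 with quantile normalization (-0.0074). With 1 mutant array left out, Fgf13 ran from -0.19 to 0.25, Fgf4 from -0.12 to 0.29, Etv4 from -1.08 to 0.052 and Etv5 from -0.25 to 0.046. The mean of probe sets turned Fgf4 (-0.0036), Fgf7 (0.089), Fgfr3 (-0.21), Etv5 (0.037) and Braf (-0.19). The alternatives for genes of the other pathway lists were added after seeing the data. Median centring brought Sdc4 past the threshold (adjusted p = 0.0398), and averaging both Klb probe sets gave 1.47. No paired analysis was possible because the normal group has 1 array, so the groups share fewer than 2 replicate numbers.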
